A study of Mus musculus with 63 samples.

Results

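Transcripts of 7 complement components and regulators (*Cfb*, *C3*, *C2*, *C4b*, *Cfi*, *Cd55* and *Cfd*) were followed in bulk RNA sequencing of small-intestinal tumours. They were chosen by gene symbol and not by their values. Of the 7, 6 had a row among the 24766 genes of the table, and *Cfd* was not analysed here. All 6 passed the filter on low values in every comparison.

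The 63 libraries came from 2 Apchet;Confetti mice, 1 female and 1 male, both older than 8 weeks at induction and both heterozygous for a floxed *Apc* allele and carrying Villin-creERT2 and the R26R-Confetti reporter. Every group shared the same treatment, 4 mg of tamoxifen and then the mutagen ENU at 200 mg per kg 10 days later. The villin promoter drives the Cre in the intestinal epithelium. From 20 tumours (10 of each mouse) the larger (major) and smaller (minor) clone were dissected apart by Confetti colour, and a further 23 tumours (10 female, 13 male) were sequenced undivided. All 23 libraries whose title has no clone letter were kept as undivided, although the study counts fewer monoclonal tumours. Of these, M15, M17 and M18 are numbered above 10, and *Rn18s*, the 18S ribosomal RNA, took 10.96%, 14.4% and 19.3% of their libraries. The main comparisons, member pairs and *Rn18s* relations of undivided tumours are therefore also given without them. Marker levels, marker relations and the lists of most alike genes were not recomputed without them. Samples carry the segment labels SI10, SI20 or SI30, the last given only to 2 divided tumours of the female mouse. Tumours are named here by the mouse (F or M) and the tumour number. Since there was 1 mouse of each sex, mouse and sex cannot be told apart, and p-values measure the spread between tumours and not between animals.

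Values were normalised counts per gene, and library sums ran from 26140227 to 45909885. The sums of undivided tumours M2 (45909885) and M5 (44630813) stood above all others. Over all libraries *Rn18s* took from 0.555% to 19.3% of a library, with a median of 3.11% in undivided tumours, 1.24% in major clones and 6.19% in minor clones, and 12 libraries lay above 10%. The epithelial markers were abundant throughout (10 of 10 measured, summed level from 242239 to 765318). In a bulk sample, fewer cells of a type and less RNA per cell cannot be told apart.

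Complement is a cascade of plasma and tissue proteins that coats targets and recruits immune cells. C4 and C2 form the C3 convertase of the classical and lectin pathways, and factor B, encoded by *Cfb*, forms that of the alternative pathway, with C3 as the common substrate. Factor I (*Cfi*) is the protease that inactivates C3b and C4b, and CD55 is a membrane protein that speeds the decay of the convertases. Intestinal epithelium is known to make several of these proteins itself, and interferon and NF-kB signalling are known inducers of *Cfb* and *C3*.

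*Cfb* (chr17:35074852-35081559), *C2* (chr17:35081578-35117241) and *C4b* (chr17:34947354-34962912) lie together on the minus strand of chromosome 17 of the GRCm39 genome, in the major histocompatibility complex. *C3* lies on the same chromosome and strand (chr17:57510964-57535155), *Cfi* on the plus strand of chromosome 3 (chr3:129629533-129668981) and *Cd55* on the minus strand of chromosome 1 (chr1:130366469-130390926). *Cfb* starts next to the annotated end of *C2*, and the readthrough transcript *Gm20547* spans both genes. *Gm20547* was listed at 0 in 46 of 63 libraries and reached 70.4 at most. The near copies *C4a* and *Cd55b* had medians of 6.43 and 3.86, and *C4a* reached 50.3 at most. The division of reads between each pair is uncertain, and how many reads it touches is unknown.

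The stretches below are shown because factors downstream of interferon and NF-kB are the known inducers of these genes. Windows of 300 bases, from 250 bases before the start of the canonical transcript of each gene, were read from GRCm39. For *C2* (chr17:35101090) and *Cfi* (chr3:129630283) that start lies inside the gene coordinates given above, and so does the *Cfi* match below. The windows were searched on both strands for the NF-kB consensus, the STAT site TTCNNNGAA (GAS), the interferon-stimulated response element (ISRE) and TTGCNNAA (C/EBP). Among 16903 windows of protein-coding genes of the table, 5.11% held the first, 7.88% the second, 3.61% the third and 9.61% the fourth. *Cfb*, *C4b* and *Cfi* held a match to the NF-kB consensus, *Cfb* at 2 positions. *Cfb* also held a GAS match just after its start, *C3* held a C/EBP match, none of the 6 held an ISRE match, and *C2* and *Cd55* held no match to any of the 4. In the lines below the capitals mark the match, each sequence runs 5′ to 3′ on the strand of its gene, and a match describes these letters only. Both NF-kB matches of *Cfb* overlap exon sequence of the *C2* gene.
*Cfb*, NF-kB, chr17:35081699-35081728, minus strand: gcaaaagctaGGGAATCCCCaggattgtgc
*Cfb*, NF-kB, chr17:35081606-35081635, minus strand: gctttcacacGGAATTTCCCagttatgtaa
*Cfb*, GAS, chr17:35081519-35081547, minus strand: gccaggaagaTTCCAGGAAggtcagagtc
*C4b*, NF-kB, chr17:34963041-34963070, minus strand: cacacacaagGGGAAGTCCCtggtactggg
*Cfi*, NF-kB, chr3:129630080-129630109, plus strand: aggtggggggGGGGAATCCCttccatggta
*C3*, C/EBP, chr17:57535163-57535192, minus strand: aggaaactatgTTGCGAAAttttgggcagt

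The members differed widely in level. Per kb of exon, the mean normalised count in undivided tumours was 1898 ± 1249 for *Cfi* (SD, n = 23), 1169 ± 448 for *Cfb*, 349 ± 202 for *Cd55*, 77.6 ± 87.6 for *C3*, 50.7 ± 64.2 for *C4b* and 29.6 ± 12.5 for *C2*. Within 1 SD, neighbours in this order overlapped, except *Cfb* and *Cd55*. The regulator *Cfi* and the alternative pathway component *Cfb* thus stood highest, and the classical component *C2* lowest. *Cfb* and *C2* were also the steadiest, spanning in undivided tumours from 2121 to 8349 normalised counts (3.94-fold) for *Cfb* and from 49.5 to 242 for *C2*. *C3* was the most variable and ran from a listed 0 in tumour M15 to 1760.

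**Figure D1:**
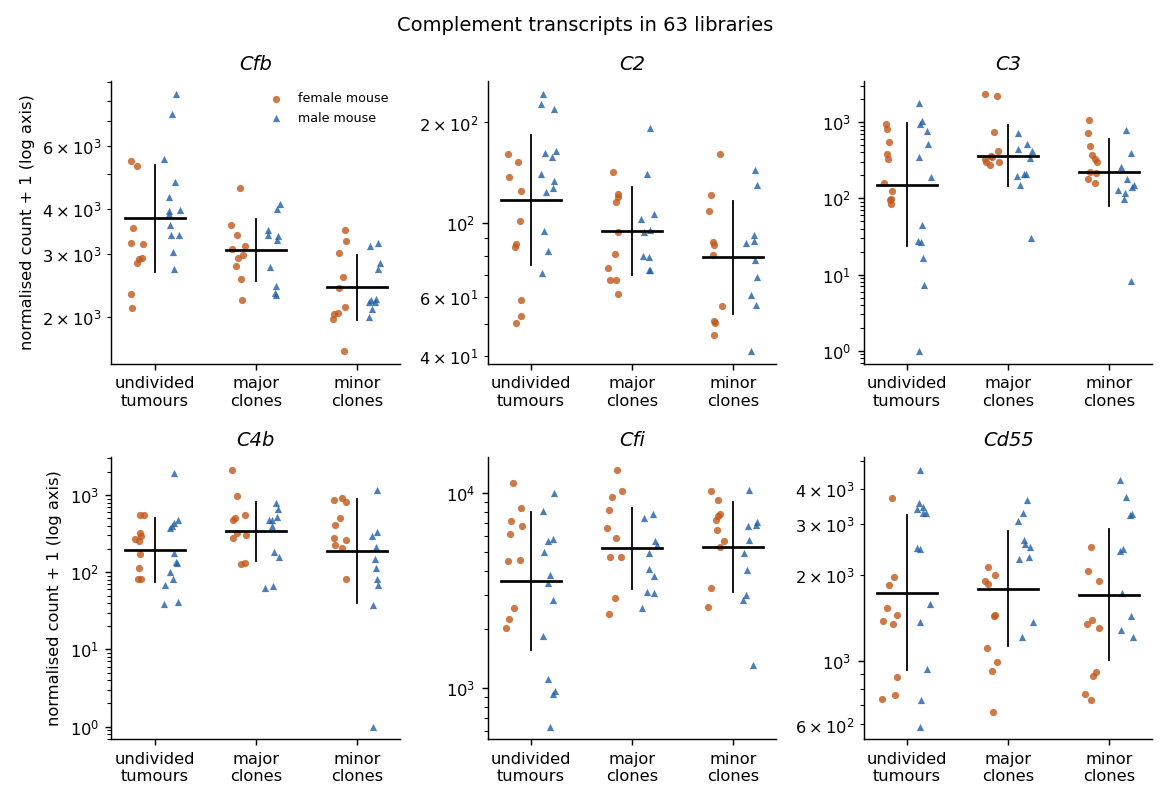
Normalised count + 1 on a log axis for the 6 transcripts (panels) in undivided tumours, major clones and minor clones, with female mouse libraries as circles and male mouse libraries as triangles. Horizontal bars are means and vertical lines SDs of the log2 values, and *Cfb* falls from undivided tumours (mean normalised count 3997) through major (3138) to minor clones (2476), while the lowest *C3* and *Cfi* values of undivided tumours lie in the male mouse.

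*Cfb*, the protease precursor of the alternative pathway, was higher in undivided tumours than in minor clones, and it was the only member past the threshold in any comparison. Its normalised count ran from 2121 (median 3531) to 8349 in undivided tumours, from 2236 (median 3126) to 4579 in major clones and from 1614 (median 2240) to 3499 in minor clones. The groups overlapped, but 22 of 23 undivided tumours lay above the median of the minor clones, 12 lay above the highest minor clone, and all 20 minor clones lay below the median of the undivided tumours. The difference was 0.62 on the log2(normalised count + 1) scale (SE 0.12, 95% interval 0.38 to 0.86, limma with mouse as a covariate, Benjamini-Hochberg adjusted p = 0.00904 over all genes). It had the 10th smallest p of 16491 genes, of which 3.7% passed the threshold in either direction and 2.27% in the upward one.

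The *Cfb* difference held in all 43 fits that left out a library, from 0.57 to 0.66 (highest adjusted p 0.0191), and without those of undivided tumours M2 and M5, whose sums were highest (0.53, adjusted p = 0.0158) or without undivided tumours M15, M17 and M18 (0.59, adjusted p = 0.0123). Without the 11 libraries of this comparison in which *Rn18s* exceeded 10% it was 0.49 with an adjusted p of 0.0917, and none of 16398 genes then passed. It was 0.79 in the male mouse alone (adjusted p = 0.0187) and 0.43 in the female mouse alone (adjusted p = 0.512), where none of all genes passed. The difference between the mice was -0.35 (95% interval -0.83 to 0.13, adjusted p = 0.560).

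Levels of several marker lists also differed in this comparison. The summed lymphocyte markers (10 of 10 measured) ran from 292 to 2005 in undivided tumours and from 180 to 865 in minor clones, a mean log2 difference of 0.65. The interferon response genes (13 of 13 measured) differed by 0.55 and the macrophage markers (12 of 12) by 0.48, both higher in undivided tumours, and the endothelial markers (10 of 10) differed by -0.71. No marker of these lists was at 0 in every library. The remaining lists differed less, the hepatocyte list by 0.40, the adipocyte list by 0.35 and epithelial markers by 0.037. Fibroblast markers (-0.16), the NF-kB and acute phase genes (-0.15) and neutrophil markers (-0.077) lay lower in undivided tumours. Their part in the *Cfb* difference was not tested.

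The other 5 members did not pass in this comparison. *C2*, the classical pathway protease, gave 0.55 (SE 0.18, limma adjusted p = 0.0698). Its normalised count ran from 49.5 (median 127) to 242 in undivided tumours and from 40.5 (median 82.1) to 160 in minor clones, so that 18 of 23 undivided tumours lay above the minor median. *C2* passed in the male mouse alone (0.82, adjusted p = 0.0423) and on leaving out minor clone F19, minor clone F20, undivided tumour F8 or undivided tumour M8 (lowest adjusted p 0.0388). It was 0.25 (adjusted p = 0.588) without libraries over 10% *Rn18s*, 0.47 (0.167) without undivided tumours M2 and M5, and 0.48 (0.107) without M15, M17 and M18. *Cfi* gave -0.54 (95% interval -1.12 to 0.04), *C3* -0.45 (-1.71 to 0.81), *C4b* 0.11 (-0.94 to 1.16) and *Cd55* -0.02 (-0.48 to 0.44), and these intervals leave room for differences in either direction. Without libraries over 10% *Rn18s*, *C3* turned to 0.36 and *Cd55* to 0.21, and without M15, M17 and M18 to 0.046 and 0.18, none past the threshold.

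Against major clones, no member passed, where 0.0121% of 16510 genes did. *Cfb* gave 0.28 (95% interval 0.04 to 0.52, unadjusted p = 0.0258 and adjusted p = 0.371 by limma) and *C2* gave 0.29 (-0.04 to 0.62). The 4 others lay lower in undivided tumours by point estimate, *C3* at -1.17 (-2.42 to 0.07), *C4b* at -0.77 (-1.56 to 0.02), *Cfi* at -0.52 (-1.08 to 0.04) and *Cd55* at -0.09 (-0.53 to 0.34). For *C4b*, 4 of 23 undivided tumours exceeded the median of the major clones, and for *Cfi* 7 lay below the lowest major clone. Without libraries over 10% *Rn18s* the values were -0.20 for *C3*, -0.37 for *C4b*, -0.038 for *Cfi* and 0.13 for *Cfb*, and without M15, M17 and M18 they were -0.67, -0.58, -0.26 and 0.25.

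**Figure D2:**
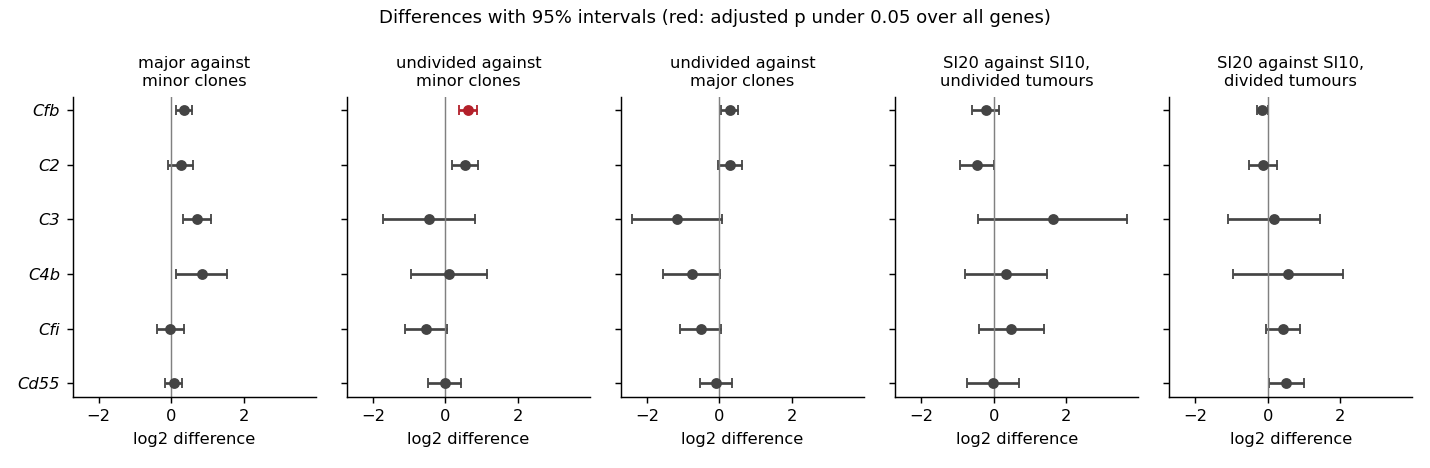
Differences in log2(normalised count + 1) with 95% intervals from limma for the 6 transcripts (rows) in 5 comparisons (panels), red where the adjusted p over all genes was under 0.05. The single red point is *Cfb* in undivided tumours against minor clones, at 0.62.

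Within divided tumours, the question was whether the clones that shared a tumour differed in complement transcripts. No member passed the threshold, which 1.14% of 16428 genes did (0.67% higher and 0.475% lower in major clones). The normalised count of *C3*, the central substrate, ran from 28.9 (median 341) to 2348 in the major clones and from 7.27 (median 219) to 1064 in the minor ones, and it was higher in the major clone of 15 of 20 tumours. The mean log2 difference was 0.72 (SE 0.19, 95% interval 0.33 to 1.104, limma with tumour as a block, adjusted p = 0.0525). The call lies at the threshold. *C3* passed in only 6 of 31 limma alternatives, with adjusted p up to 0.660. It passed with a filter at a mean of 50 (adjusted p = 0.04998), with quantile normalization (0.0447) and on leaving out tumour F19, F20, F29 or M31 (0.0310 to 0.0486). It did not without the 5 tumours that had a clone over 10% *Rn18s* (0.65, adjusted p = 0.173).

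*Cfb* was higher in the major clone of 14 of 20 tumours, 7 in each mouse, by a mean of 0.34 (SE 0.11, adjusted p = 0.0761 by limma). The difference ran from -0.44 in tumour M22 to 1.504 in tumour F22, the tumour whose clones carried different segment labels. *Cfb* passed in only 1 of 31 alternatives, on leaving out tumour F19 (0.38, adjusted p = 0.0448 by limma). *C4b*, whose product forms the classical convertase with C2, was higher in 15 of 20 major clones by 0.84 (95% interval 0.14 to 1.54, adjusted p = 0.143 by limma). That mean leans on tumour M19, whose minor clone was listed at 0 and whose major clone stood at 65.9.

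*C2* was higher in 12 of 20 major clones (0.26, 95% interval -0.08 to 0.60, and 0.011 without tumours over 10% *Rn18s*). The regulator *Cfi* was higher in 11 of 20 (-0.02, -0.40 to 0.36) and *Cd55* in 10 of 20 (0.07, -0.16 to 0.30). Single tumours nonetheless differed in *Cfi*, from -2.005 in tumour M28 (2581 in the major and 10362 in the minor clone) to 1.66 in tumour F30 (8161 and 2590). *Rn18s* was the lower in the major clone of 15 of 20 tumours. Fibroblast markers were higher in the major clone in 13 of 20 tumours (10 of 10 measured, summed level from 3628 to 24223.5 in major and from 4126 to 21998 in minor clones) and macrophage markers in 15 of 20, by means of 0.36 and 0.33 on the log2 scale. Lymphocyte and neutrophil markers were each higher in 13 of 20 (0.33 for both), the adipocyte and hepatocyte lists in 14 of 20 (0.18 and 0.27), the interferon response genes in 13 of 20 (0.081) and endothelial markers in 7 of 20 (-0.25). Epithelial markers were higher in 12 of 20 (0.14) and the NF-kB and acute phase genes in 11 of 20 (0.21). The part of these lists in the clone differences was not tested.

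**Figure D3:**
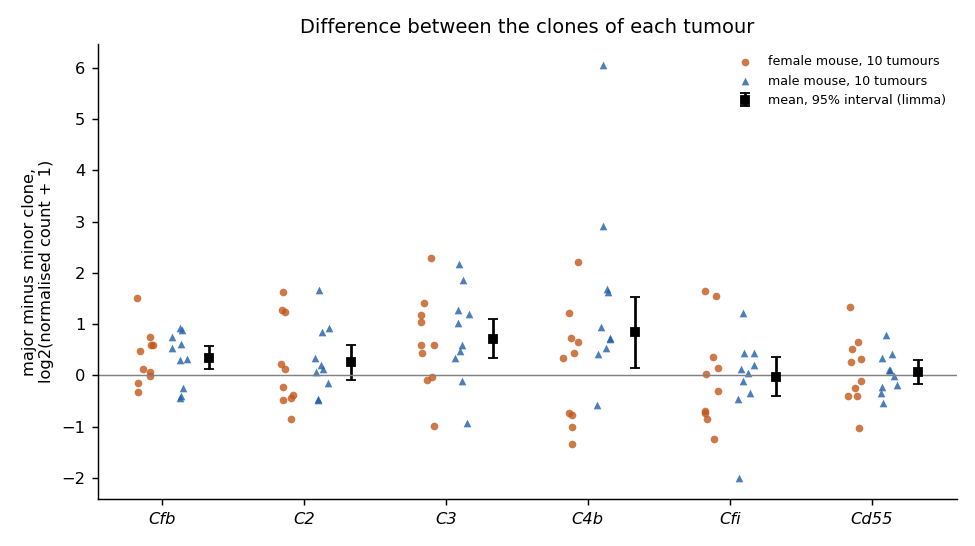
Major minus minor clone in log2(normalised count + 1) for each of 20 tumours, female mouse as circles and male mouse as triangles, with the limma mean and its 95% interval as black squares. *C3* lies above 0 in 15 of 20 tumours, *Cfi* and *Cd55* are spread about 0, and the *C4b* point at 6.06 is tumour M19.

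The clone difference was also compared between segments and between mice. In the 17 divided tumours with a single SI10 or SI20 label, no member differed in its clone gap between SI20 and SI10, and 0 of 16436 genes passed with limma (667 at an unadjusted p under 0.05). Between the mice 0 of 16428 genes passed with limma (1257 at an unadjusted p under 0.05). *C4b* was the member with the largest difference of gaps, 1.505 in the male and 0.18 in the female mouse (difference -1.33, 95% interval -2.63 to -0.03, adjusted p = 0.645). Without tumour M19 the difference was -0.82 (adjusted p = 0.461 by limma).

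Levels in the clones of a tumour were next set against each other over the 20 tumours, 6 relations with permutation p-values adjusted over the 6. The share of all genes with such a relation was not computed. *C3* (Pearson's r = 0.800, adjusted p = 0.00102, Spearman's rho = 0.583, adjusted p = 0.0240), *Cd55* (r = 0.727, adjusted p = 0.00102, rho = 0.789, adjusted p = 0.00054) and *C4b* (r = 0.691, adjusted p = 0.00104, rho = 0.556, adjusted p = 0.0243) rose and fell together in the clones of a tumour. Without the 2 tumours farthest from the median, r was 0.634 for *C3*, 0.748 for *Cd55* and 0.518 for *C4b*. Within the female and the male mouse, r was 0.647 and 0.848 for *C3*, 0.551 and 0.788 for *C4b*, and 0.365 and 0.805 for *Cd55*.

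*Cfb* ran the other way. Its r between the clones was -0.521 (permutation, adjusted p = 0.0279), -0.413 in the female and -0.695 in the male mouse, and -0.545 without the 2 farthest tumours, while rho was -0.418 (adjusted p = 0.101). In tumour F22 the major clone held 4579 and the minor clone 1614 normalised counts, and in tumour F19 the order was 2785 and 3499. With libraries scaled to equal sums the r of *Cfb* was -0.423 (adjusted p = 0.0958). *Cfi* (r = 0.266, adjusted p = 0.313) and *C2* (r = -0.137, adjusted p = 0.566) showed no relation past the threshold by permutation.

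**Figure D4:**
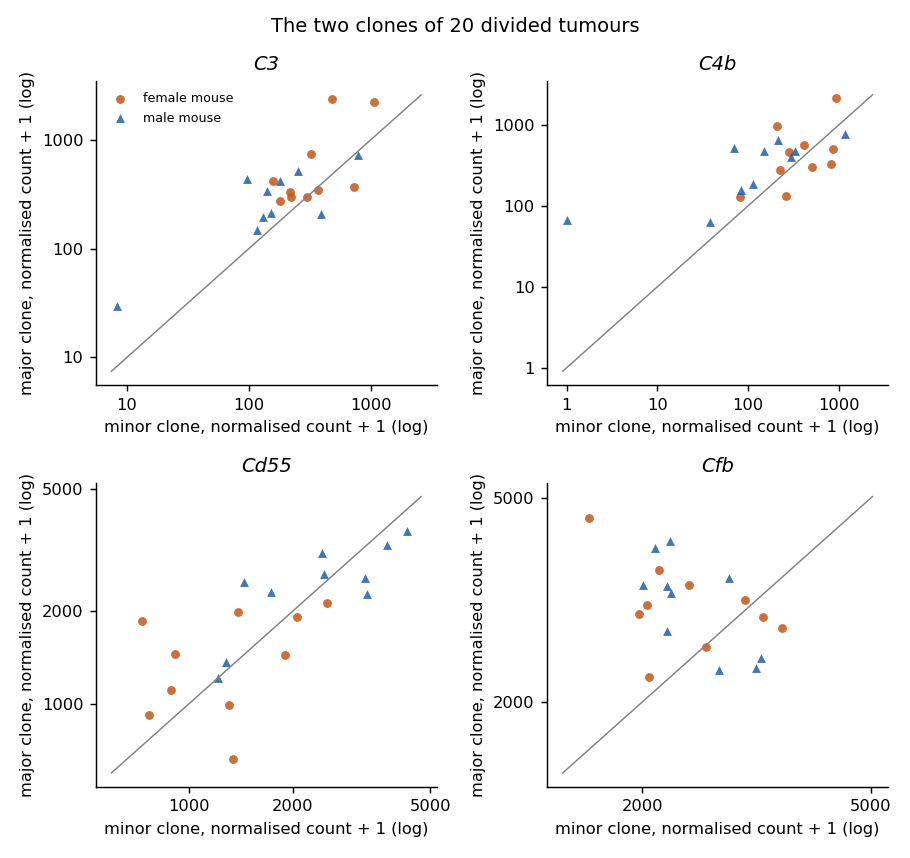
Level in the major clone (y axis) against the minor clone (x axis) of the same tumour for *C3*, *C4b*, *Cd55* and *Cfb*, as normalised count + 1 on log axes, with the line of equality in grey and 1 point for each of 20 tumours (circles female mouse, triangles male mouse). The first 3 rise together (r = 0.800, 0.691 and 0.727), and *Cfb* falls (r = -0.521).

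Undivided tumours were used to ask which members vary together from tumour to tumour. Over 23 tumours, 7 of 15 pairs passed (permutation test, adjusted over the 15). The share among pairs of all genes was not computed, so this count cannot be called particular to the members. *Cfb* and *C2*, neighbours on chromosome 17, rose together (r = 0.777, adjusted p = 0.000375, rho = 0.761, adjusted p = 0.0006). They did so in the female (r = 0.607) and the male mouse (r = 0.830), and r was 0.694 without the 2 tumours farthest from the median. Tumour M5 was highest in both, with 8349 normalised counts of *Cfb* and 242 of *C2*.

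*C3*, *C4b* and *Cfi* formed a second set that rose together. The r was 0.725 for *C3* and *Cfi* (adjusted p = 0.000375), 0.721 for *C4b* and *Cfi* (adjusted p = 0.00065) and 0.671 for *C3* and *C4b* (adjusted p = 0.0018), by permutation, and lay between 0.441 and 0.770 for these pairs within each mouse. The rho was 0.718, 0.751 and 0.706 (highest adjusted p 0.000975), and r without the 2 farthest tumours was 0.773, 0.775 and 0.731. The values in the male mouse stand on a spread of *C3* with a gap, since no tumour lay between 43.1 (M18) and 191 (M9).

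Across the sets the relations were negative. *C2* fell as *Cfi* rose (r = -0.558, adjusted p = 0.0167), and so did *Cfb* against *Cfi* (r = -0.517, adjusted p = 0.0268) and *C2* against *C3* (r = -0.514, adjusted p = 0.0268), by permutation. The rho of these pairs was -0.567 (adjusted p = 0.0158), -0.470 (0.0513) and -0.500 (0.0422), and r without the 2 farthest tumours was -0.574, -0.374 and -0.440. Within the female mouse these 3 were near 0 (-0.064, -0.088 and 0.012), and within the male mouse they were -0.739, -0.609 and -0.706, so the negative relations do not hold within both mice. Without M15, M17 and M18, 4 of 15 pairs passed, *Cfb* with *C2* (r = 0.764) and the 3 pairs of *C3*, *C4b* and *Cfi* (0.647 to 0.744), and none of the negative ones (r of -0.466, -0.524 and -0.378, lowest adjusted p 0.0523 by permutation). None of the 15 pairs of differences between clones passed, the closest being *Cfb* and *C2* (r = 0.587, adjusted p = 0.0975 by permutation).

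*Rn18s* moved with these levels. Over the 23 undivided tumours its share of the library correlated with *Cfi* (r = -0.825, rho = -0.813, each adjusted p = 6e-05 over 6 relations by permutation), *C4b* (r = -0.787, adjusted p = 6e-05) and *C3* (r = -0.713, adjusted p = 0.00012), and with *C2* (r = 0.446, adjusted p = 0.0483). The r was 0.416 for *Cfb* (adjusted p = 0.0568) and -0.346 for *Cd55* (adjusted p = 0.104). Without M15, M17 and M18 the relations of *Cfi* (r = -0.761), *C4b* (-0.737) and *C3* (-0.695) still passed by permutation. That of *C2* did not (r = 0.338, adjusted p = 0.174). Within the mice the r with *Cfi* was -0.694 (female) and -0.860 (male). Between clones of a tumour none of the 6 differences correlated with that of *Rn18s* past the threshold (r from -0.321 to 0.190). In the 16 undivided tumours at or under 10% *Rn18s*, 1 of 15 pairs passed, *C3* and *C4b* (r = 0.717, adjusted p = 0.0357, rho = 0.471, adjusted p = 0.334, permutation), and the r of *Cfb* and *C2* was 0.566 (adjusted p = 0.105), that of *C4b* and *Cfi* 0.570 (adjusted p = 0.105) and that of *C3* and *Cfi* 0.419 (adjusted p = 0.405). The 3 pairs with negative relations named above then gave -0.111, -0.143 and -0.091.

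**Figure D5:**
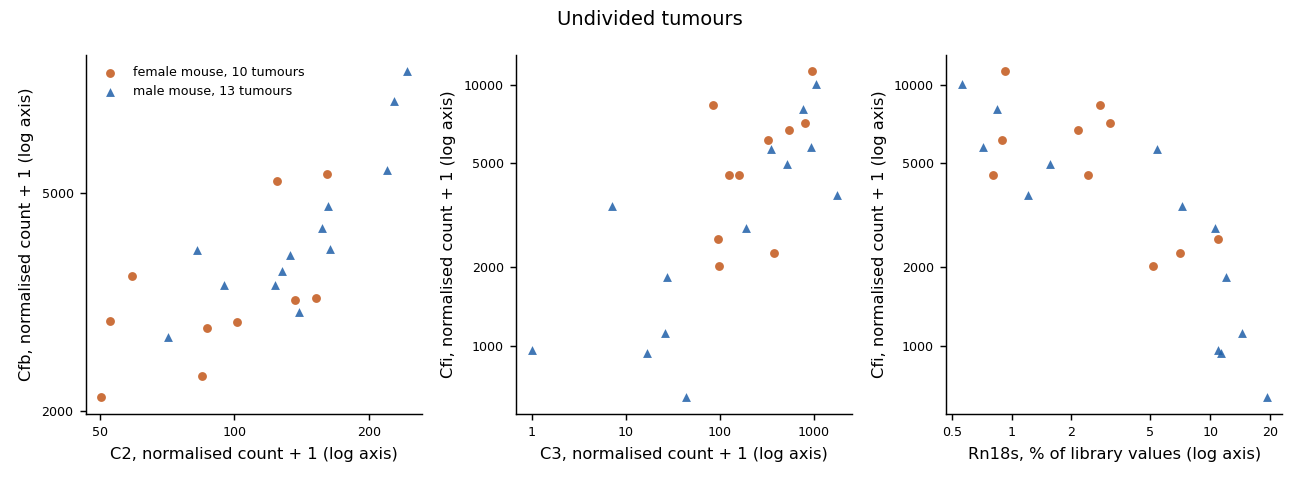
The 23 undivided tumours (circles female mouse, triangles male mouse) on log axes, with *Cfb* against *C2*, *Cfi* against *C3*, and *Cfi* against the percent of library values taken by *Rn18s*. *Cfb* rises with *C2* (r = 0.777) and *Cfi* with *C3* (r = 0.725), while *Cfi* falls as *Rn18s* rises (r = -0.825).

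Members were also set against marker levels over the undivided tumours, and 25 of 60 relations passed (permutation p-values adjusted over the 60). The share among all genes was not computed, so this count cannot be called particular to the members. None of the 60 was recomputed without the libraries in which *Rn18s* was high, so the part of *Rn18s* in these relations was not tested. *Cfb* rose with the interferon response genes (r = 0.768) and lymphocyte markers (r = 0.746) and fell against endothelial markers (r = -0.731), each with adjusted p = 0.000825 and with the same sign in each mouse. For *C2* the r was 0.685, 0.520 and -0.705, of which the lymphocyte relation was 0.269 in the female mouse and did not pass with equal library sums (r = 0.420, adjusted p = 0.0814). *C4b* rose with fibroblast markers (r = 0.749, adjusted p = 0.000825), as did *C3* (r = 0.676, adjusted p = 0.0012), which also followed neutrophil markers (r = 0.713, adjusted p = 0.0012). *Cfi* rose with the NF-kB and acute phase genes (r = 0.746, adjusted p = 0.000825), as did *C3* (r = 0.618, adjusted p = 0.0084). *C2* fell against them (r = -0.544, adjusted p = 0.0208), with r = -0.239 in the female mouse. That relation of *C2* passed in 3 of 4 alternatives (highest adjusted p 0.123 by permutation). The other members did not pass with this list, *Cfb* at -0.332 (adjusted p = 0.204), *C4b* at 0.477 (0.0508) and *Cd55* at 0.362 (0.157), by permutation. *Cfi* also passed with neutrophil (r = 0.658), fibroblast (0.609), endothelial (0.600) and epithelial markers (0.575), and *C3* with epithelial ones (0.520), while the endothelial relation of *Cfi* was -0.114 in the female mouse. The rho of each relation named had the sign of r.

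*Cd55*, the membrane regulator, passed with no other member over undivided tumours, but did with *Cfi* (r = 0.563), *C4b* (0.495), *C3* (0.439) and *C2* (-0.470) once the mean of each mouse was removed. Each of these pairs passed in only that 1 of 6 alternatives. Without libraries over 10% *Rn18s* their r was 0.0007, 0.145, 0.255 and -0.216. *Cd55* followed the epithelial markers (r = 0.867, adjusted p = 0.0003 by permutation), 0.816 in the female and 0.929 in the male mouse. Its r with the adipocyte and hepatocyte lists was 0.878 and 0.769, lists of which 6 and 7 of 10 genes had a row. In undivided tumours 1 of these 6 and 2 of these 7 genes had a median under 10. Which genes carry the 2 sums was not examined, so they cannot be read as amounts of fat or liver cells. The mean normalised count of *Cd55* over all libraries was 1461 ± 655 (SD, n = 30) in the female and 2478 ± 1064 (n = 33) in the male mouse. These values include the paired clones and carry no test.

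By segment, no member passed. In undivided tumours, where 0.17% of 16511 genes passed, *C2* gave -0.47 for SI20 against SI10 (95% interval -0.94 to -0.0043, unadjusted p = 0.0481, adjusted p = 0.652 by limma) and *C3* 1.63 (-0.42 to 3.69, adjusted p = 0.713). The value of *C3* was 0.30 without libraries over 10% *Rn18s*. The SI10 tumours held 148 ± 57.4 (SD, n = 12) normalised counts of *C2* and the SI20 tumours 105 ± 41.5 (n = 11). In divided tumours, where 0.28% of 16436 genes passed, *Cd55* gave 0.51 (0.03 to 0.99, adjusted p = 0.324) and *Cfb* -0.16 (-0.31 to -0.01, adjusted p = 0.334). The sign of *C3* and *C4b* turned in the female mouse alone in undivided tumours (-0.56 and -0.44) and in divided tumours (-0.26 and -0.64).

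The rest of the cascade was read from a list of 50 other complement genes, 42 of which had a row. Of the 33 tested between clones, 23 were higher in major clones (median 0.25 on the log2 scale, against 0.00739 over all genes tested) and 1 passed. This was *C1ra*, a protease of the C1 complex, at 0.82 (SE 0.17, adjusted p = 0.0266 by limma), with a mean of 143 ± 47.0 (SD, n = 20) in the major and 92.7 ± 64.6 in the minor clones. Its near copy *C1rb* (mean 15.7) makes the division of reads between them uncertain. *C1ra* did not pass in the female mouse alone (0.34, adjusted p = 0.720) or without tumours over 10% *Rn18s* (0.82, adjusted p = 0.114). All 3 chains of C1q, which is made mainly by macrophages, were positive without passing, *C1qa* at 0.33 (adjusted p = 0.139), *C1qb* at 0.21 (0.346) and *C1qc* at 0.38 (0.120). The 6 receptors tested were all positive between clones. Of these, *Itgam* gave 0.41 (adjusted p = 0.0821 by limma), *Cd93* 0.75 (0.140) and *Itgb2* 0.23 (0.446). The regulators leaned the other way. In major clones, 2 of 5 membrane regulators tested were higher (median -0.44) and 2 of 6 soluble regulators (median -0.16). The share of all genes that were positive was not computed.

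Among soluble regulators, *Clu* (clusterin, an inhibitor of the terminal complex) was the most abundant complement transcript listed, at 83839 normalised counts over all libraries (4841 to 277590). In undivided tumours against minor clones it gave -0.98 (adjusted p = 0.140 by limma) and C4b-binding protein (*C4bp*) -0.99 (0.166). Of the 32 genes tested, 1 passed here, where 3.7% of all genes did. It was *Cpn2*, a subunit of the carboxypeptidase that trims anaphylatoxins, at 1.61 (SE 0.46, adjusted p = 0.0402 by limma). Its normalised count ran from 0 to 317 in undivided tumours (median 60.4) and from 0 to 145 in minor clones (median 17.4). *Cpn2* passed in 30 of 56 alternatives, and lost its call in the male mouse alone (1.98, adjusted p = 0.152), with mouse and segment as covariates (1.43, adjusted p = 0.0649) and without libraries over 10% *Rn18s* (0.90, adjusted p = 0.303). The 32 genes had a median of 0.06, with 18 higher, against -0.0145 over all genes tested.

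Of the other roles, none passed in any comparison. In the alternative pathway, *Cfhr2* averaged 742 normalised counts and properdin (*Cfp*) 193, and *Cfhr2* gave 0.68 between clones (adjusted p = 0.0888 by limma). In the lectin pathway the levels were low, with *Colec12* at 35.2, *Fcna* at 33.2 and *Mbl2* at 13.8. Terminal components were also low, *C6* at 35.6 and *C8g* at 20.4, with *C8b* and *C7* at 2.42 and 1.28 and thus under the filter. Of the membrane regulators, *Cr1l*, the rodent regulator known as Crry, was steady at 2116 (1480 to 3215), while *Cd59a* averaged 244 and *Susd4* 24.7.

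Finally, the genes whose tumour-to-tumour pattern was most like each member were listed over the 23 undivided tumours, after the mean of each mouse was removed and among 16326 genes. For *Cfb* they were *Nadsyn1* (r = 0.849), *Agmat* (0.818), *Psmb10* (0.812), *Plcb3* (0.808) and *Cd48* (0.804). For *C2* they were *Tnfrsf14*, *Adck5*, *Igfals*, *Jaml* and *Ppt1* (0.759 to 0.782), and for *C3* they were *Slpi*, *Adgrg6*, *Tubb6*, *Retnlb* and *Nptx2* (0.862 to 0.891). *C4b* was nearest to *Ern2*, *Creb3l4*, *Habp2*, *Sema3b* and *Plod1* (0.853 to 0.885), and *Cfi* to *Mmp14*, *Plat*, *Ddr1*, *Adam9* and *Adgrl2* (0.915 to 0.950). *Cd55* was nearest to *Lgals3*, *Emp1*, *F2rl1*, *Itprid2* and *Serpinb6a* (0.916 to 0.932). These lists were picked for their likeness and carry no test.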

How the data were processed

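Polyadenylated RNA of 63 tumour libraries was sequenced with a stranded kit. As deposited by the authors, the values are a signal per gene, Salmon (1.9.0) estimated counts against Gencode on GRCm39 after trimming with Trimmomatic (0.39), scaled between libraries (normalised counts). The sources used here name DESeq2 but not the scaling step. Whole reads could not be recovered, so depth per value is unknown and no count model was used. Which clone of a tumour was major came from the source data of the study, matched on sample titles. Tumour numbers pair the clones because both were cut from 1 tumour. Deviations from the class means correlated at a median of 0.262 (0.0253 to 0.618) within tumours, over 0.1 in 17 of 20. Between tumours the median was -0.016. Pairs between tumours mixed mice and segments, so these values do not separate a shared tumour from a shared mouse or segment.

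Each comparison kept genes averaging 10 or more and tested them on log2(value + 1) with limma 3.58.1 (eBayes with trend, R 4.3.3), with tumour as a block between clones and mouse as a covariate elsewhere, and Benjamini-Hochberg adjustment over all genes (threshold 0.05). Correlations used 100000 permutations, two-sided, on log2 values or log2 summed marker levels (numpy 2.4.6, scipy 1.17.1). The scripts were tested on simulated data. *Cfd* had no row, so the member pairs numbered 15. Members, lists and motifs were chosen with earlier results of these data known, and the lists were written from general knowledge. Genes named beyond the members are those past the threshold, the up to 3 highest per role and the 5 most alike per member, except a gene that is not reported here. Alternatives covered the pseudocount, filter, scaling, covariates, single mice, single segments, the block, a signed-rank test and each library left out. Those on *Rn18s*, library sums, undivided tumours numbered above 10 and the *C4b* clone difference without tumour M19 were chosen after seeing the data. Promoter windows used canonical transcript starts of Gencode M39, a later release than the authors'.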

Additional observations from a re-analysis of the deposited data

Results flagged for a closer look

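Tumour 19 of the male mouse stood apart in *C3* and *C4b*. Its major clone was the lowest of the 10 major clones of that mouse in *C3* (28.9 normalised counts), and its minor clone the lowest of the 10 minor clones (7.27). On the log2(normalised count + 1) scale, each had a gap to the next sample above Dixon's critical value. The same minor clone was listed at 0 for *C4b*, again beyond that value. These were the 3 flags among 30 groups of 10 libraries tested over the 6 members, and chance flags about 1 group in 20. The flags are not independent, since all 3 came from libraries of this 1 tumour. *Rn18s* took 8.96% of its major and 14.2% of its minor library, and the part of this in the low values was not tested.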

How the results depend on the processing

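Of 764 values recomputed under alternatives other than leaving out a library, 656 stayed the same, 33 lost and 10 gained a call, 40 moved and 25 changed sign. Counts of genes or relations stayed the same within a fixed fold limit and otherwise moved. Other values stayed the same if they kept direction and side of the threshold. Exact signed-rank p-values entered unadjusted. The calls that *C3* (p = 0.00233), *Cfb* (0.00944) and *C4b* (0.0484) gained by that test therefore rest on an unlike threshold. The cause of the changes was not tested. The *Rn18s* and library-sum alternatives and those without undivided tumours M15, M17 and M18 were chosen after seeing the data. Deposited values carry no read depth, so the precision of low values is unknown.

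Genes passing between major and minor clones numbered 188 with the tumour pairing and 0 with no replicate block, where *C1ra* lost its call (adjusted p = 0.197 by limma) and no member gained one. They numbered 292 with equal library sums, 346 with quantile normalization, 85 with no filter, 42 without the tumour with 2 segment labels, 33 and 0 in the male and female mouse alone, and 6 without libraries over 10% *Rn18s*. Members passing went from 0 to 1 with the filter at 50 and with quantile normalization. *Cfi* turned to 0.021 without the tumour with 2 segment labels and *Cd55* to -0.015 without libraries over 10% *Rn18s*. Leaving out 1 tumour gave 25 to 859 genes, 0 to 2 members and -0.11 to 0.082 for *Cfi*.

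For undivided tumours against minor clones, 610 genes became 325 with SI10 and SI20 only, 367 with mouse and segment, 169 without the 2 libraries of highest sum, and 0 in the female mouse alone and without libraries over 10% *Rn18s*. Members passing went from 1 to 0 in those last settings and to 2 in the male mouse. *C3* turned to 0.36 and *Cd55* to 0.21 without libraries over 10% *Rn18s*, *C3* to 0.046 and *Cd55* to 0.18 without M15, M17 and M18 (828 genes), *C4b* to -0.72 and *Cd55* to 0.13 in the female mouse, and *C4b* to -0.00273 with a pseudocount of 5. Leaving out 1 library gave 274 to 959 genes, 1 to 2 members, -0.29 to 0.29 for *C4b* and -0.097 to 0.059 for *Cd55*. Against major clones, 2 genes became 1 with quantile normalization and 0 with SI10 and SI20 only, equal sums, either mouse, mouse and segment, no filter, or any of the added alternatives, and 0 to 25 on leaving out 1 library. *Cd55* turned to 0.038 in the female mouse, 0.22 without libraries over 10% *Rn18s* and 0.11 without M15, M17 and M18.

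For segments in undivided tumours, 28 genes became 46 in the male mouse, 18 with a pseudocount of 0.1, 0 in the female mouse and under all 3 added alternatives, and 5 to 53 on leaving out 1 tumour. *C3* (-0.56), *C4b* (-0.44) and *Cfi* (-0.24) changed sign in the female mouse, and *Cd55* with equal sums (0.094) and without the 2 libraries of highest sum (0.023). Leaving out 1 tumour gave -0.010 to 0.59 for *C4b* and -0.16 to 0.18 for *Cd55*. In divided tumours, 46 genes became 6 and 0 in the male and female mouse and 13 to 215 on leaving out 1. There *C3* (-0.26), *C4b* (-0.64) and *Cfi* (-0.023) changed sign in the female and *C2* (0.042) in the male mouse, and leaving out 1 tumour gave -0.45 to 0.55 for *C3* and -0.16 to 1.08 for *C4b*. Member relations past the threshold in undivided tumours went from 7 to 11 after the mean of each mouse was removed, to 4 with equal sums and without M15, M17 and M18 (where *Cfb* and *Cd55* turned to 0.0017), and to 1 without libraries over 10% *Rn18s*, where *C2* and *C4b* (0.146), *Cfb* and *C3* (0.218) and *Cfb* and *C4b* (0.112) changed sign.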
